A study of Homo sapiens with 25 samples.

Results

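The transcriptome of Jurkat cells kept in medium with 12.5% histidine was compared between day 6 and day 3. Jurkat is an established human T-cell leukaemia line, grown in suspension and widely used as a model of T-cell signalling. The comparison used 5 of the 25 libraries of the series, 2 from day 6 and 3 from day 3. A gene entered it when its normalized value reached 10 in 2 or more of the 25 libraries, as did 22994 of the 36755 genes in the deposited table. The series grew these cells at 100%, 50%, 25%, 12.5% or 0% histidine and sampled them on day 3 and, except at 0%, again on day 6. No other agent, genotype or vector is named in the labels, which set the groups apart by histidine level and day alone. Beside the 12.5% groups, the text uses 100% histidine (2 libraries on day 3 and 3 on day 6) and 25% histidine (3 and 3), because a change between days at 12.5% can be read only against the change between days at other levels. Nothing in the labels says that replicates came from separate cultures, so the p-values reflect library-to-library scatter alone, and that scatter may be technical.

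Histidine is an essential amino acid for cultured human cells, and its shortage leaves histidyl-tRNA uncharged. Uncharged tRNA activates the kinase GCN2, which lowers general protein synthesis while translation of the transcription factor ATF4 goes on. ATF4 then drives genes for amino acid synthesis, transport and tRNA charging, and proliferating lymphoid cells that run short of amino acids are known to slow their entry into DNA synthesis. In bulk RNA of this kind, fewer cells of a type or phase and less RNA per cell cannot be told apart.

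The deposited values are read estimates divided by a size factor per library, so the sequencing depth behind them is unknown. The normalized totals were between 20758545 and 20860393 in the 3 day 3 libraries and 18929483 and 19725694 in the 2 day 6 libraries. The 16 T-cell markers chosen as a check of the cell type were above 0 in all 5 libraries. CD3E, a signalling chain of the T-cell receptor complex, lay between 22050 and 24930, and LCK, the kinase that phosphorylates that complex, between 13340 and 15910. EPCAM, a defining epithelial gene, and MPO, a defining myeloid gene, were at 0 in all 5, but other markers of those cell types were not. The epithelial keratin KRT8 lay between 96.06 and 211.9, and the myeloid marker LYZ between 109.2 and 281.8.

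Both day 6 libraries at 12.5%, together with replicate 3 of 25% day 6, stood apart from the other 22 libraries of the series. These 3 carry consecutive library numbers in the labels, 23 for the 25% library and 24 and 25 for the pair at 12.5%. The summed value of 18 genes of cytotoxic lymphocytes was 3321 in library 23, 3612 in library 24 and 2840 in library 25, against 766.5 to 1611 in the other 22. The summed value of 10 HLA class II genes, which present antigen, was 5555, 6039 and 6248 in the same order, against 1980 to 3057. Both lists were chosen after the values were seen. CD8A, the coreceptor chain of cytotoxic T cells, had values of 633.2, 629.8 and 484.2 in libraries 23, 24 and 25 and at most 205.7 elsewhere. CD74, the class II invariant chain, had values of 2736, 3011 and 3173 and at most 1307 elsewhere. In the comparison of days at 12.5%, 6 of 17 tested cytotoxic genes and 8 of 10 class II genes were called higher. The share over all genes tested was 3.56%, and the list medians were 1.51 and 1.17 on the log2 scale. The lists were chosen with libraries 24 and 25 in view, so these calls are no test of them. Against the change between days at 25%, where library 23 is among the day 6 libraries, none of either list was called. The medians of that difference were still 0.96 and 0.79. Values at 25% day 6 spread widely (CD8A at 159.5, 167.8 and 633.2), so the lack of calls does not show that the changes were alike.

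**Figure D1:**
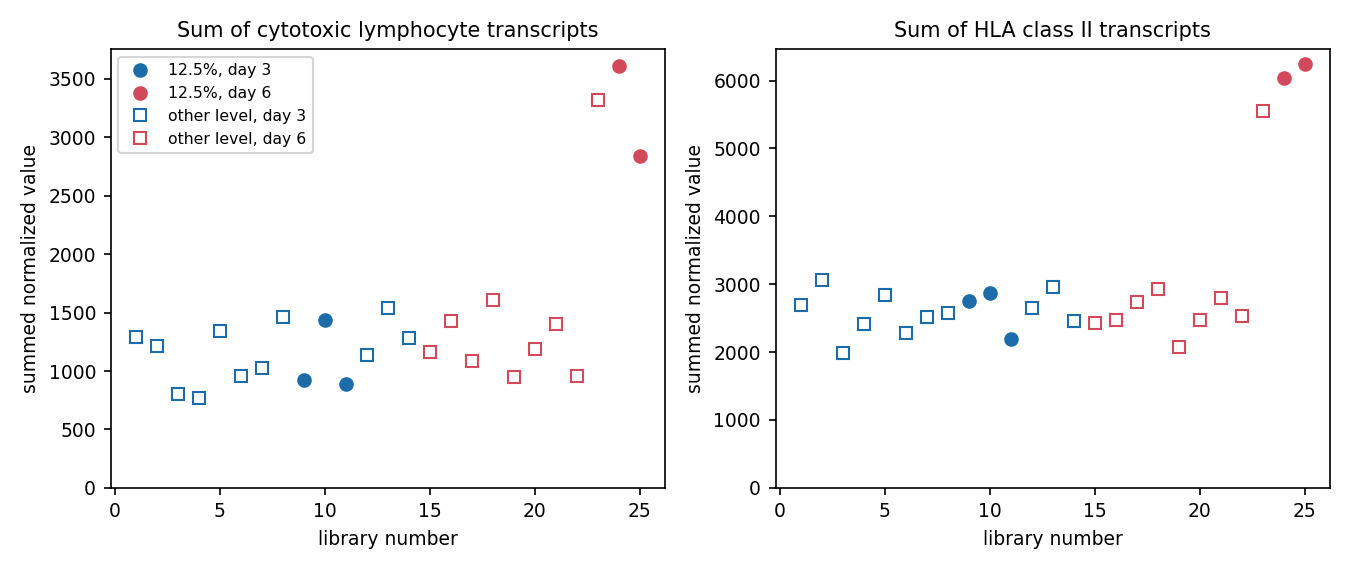
Summed normalized values of 18 cytotoxic lymphocyte genes (left) and 10 HLA class II genes (right) on the y axes, by library number on the x axes; each point is 1 library, filled for 12.5% histidine, blue for day 3 and red for day 6. Libraries 23, 24 and 25 sit at 2840 to 3612 and at 5555 to 6248, above all 22 others.

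Because both day 6 libraries at 12.5% are in this trio, they cannot be left out of the comparison. The main counts are therefore also given from a fit with a term for libraries 23 to 25. That term, chosen after the data were seen, rests on library 23 against its 2 partners at 25% day 6, and it leaves little of the comparison to be tested. Markers of other cell types were summed as well. The summed erythroid genes were 191.4 to 3832 on day 3 and 248 to 390.1 on day 6, the high value being replicate 3 of day 3. The summed fibroblast and matrix genes were 3265 to 9725 and 7675 to 12330, the myeloid genes 194.5 to 294.9 and 313 to 385.5, and the B-cell genes 679.7 to 697.7 and 387.2 to 476.9. The epithelial genes summed to 286.5 to 464.2 and 430.9 to 523.6, and the muscle genes to 275.4 to 297.7 and 555.2 to 563.4. In library 22, a partner of library 23 in that term, the muscle genes summed to 39660. No other library of the series exceeded 661.7. Of these 6 lists, 3 members passed the test, namely ITGAM of the myeloid list and TTN of the muscle list, both higher but not called with 1 library left out (adjusted p up to 0.126 and 0.19), and CD79A of the B-cell list, which was lower. None of these 3 was called with the term. The part of any of these in the results below was not tested, and neither was the cause of the trio's difference.

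On day 6 the cells at 12.5% histidine had lower levels of genes for DNA replication, translation, nucleotide and one-carbon metabolism and energy metabolism than on day 3, and on the deposited scale none of the lists of stress genes had a member called higher. The fit called 3172 of the 22994 genes at an adjusted p under 0.05 (limma's moderated test on log2(value + 1) with Benjamini-Hochberg adjustment, as for every adjusted p in this text), which is 13.8% of the genes tested. Of these, 818 were higher on day 6 (3.56% of the genes tested) and 2354 were lower (10.2%). Counts of list members called between days are to be read beside these shares. The median log2 difference, day 6 minus day 3, was 0.03 over all genes tested and -0.1 over the 10792 protein-coding genes with a mean of at least 100. Called genes that were lower changed by a median of 0.43 on the log2 scale, and 61 of them by more than 2-fold. Called genes that were higher changed by a median of 0.57, and 237 of them by more than 2-fold.

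The balance of directions depended on the scaling. Higher genes made up 25.8% of the calls on the deposited scale, 51.7% after scaling each library to 1 total, 44.7% after quantile normalization and 39.4% after a correction for transcript length and GC content. Scaling to 1 total moved the median of all genes to 0.14, and differences near that size in either direction should be read relative to it. A fit with that term for libraries 23 to 25 called 58 genes, 15.5% of them higher, and 53 of these were among the 3172. Of the 34 gene lists tested, 4 held a gene called by that fit for the change between days (DNA replication, glycolysis, T-cell identity and ribosome biogenesis) and 30 held none. The fit without that term called 1449 genes when replicate 2 of day 6 was left out and 1655 when replicate 1 of day 6 was. Each of the 3172 genes kept its direction in both.

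The 10 largest rises among called genes at a mean of at least 50 were IFNG, H2AC19, TNFRSF1B, HOPX, SLAMF7, RGS1, BCL3, IL12RB2, CD8A and MYO1F. IFNG, the cytokine interferon gamma, had values of 0, 47.64 and 1.062 on day 3 and 111.8 and 89.38 on day 6. Library 23 held 109.5 of it, and no library outside the trio more than 47.64. The IFNG difference was 4.44 ± 1.375 (SE) on the log2 scale with an adjusted p of 0.0367. HOPX, a homeodomain protein found in effector lymphocytes, had values of 7.278, 10.96 and 6.796 against 101.7 and 66.89, a difference of 3.19 with an adjusted p of 0.0015. CD8A had values of 60.86, 205.7 and 86.27 against 629.8 and 484.2, a difference of 2.42 with an adjusted p of 0.0037. These rises and the falls below were chosen among genes whose groups do not overlap, so that trait is no result. It held for 816 of the 818 called rises, 2350 of the 2354 called falls and 9978 of all 22994 genes tested. None of the 10 rises was called with the term for libraries 23 to 25. IFNG, H2AC19, TNFRSF1B, RGS1, IL12RB2 and CD8A also lost the call when 1 library was left out, with adjusted p-values up to 0.183 for IFNG, 0.0965 for H2AC19, 0.178 for TNFRSF1B, 0.0614 for RGS1, 0.195 for IL12RB2 and 0.0538 for CD8A. Among all 818 rises, library 23 lay above both of its partners for 428 (52.3%), against 30.6% of all genes tested. The falls showed this too: library 23 lay below both partners for 1489 of the 2354 (63.3%), against 33.5% of all genes tested.

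The 10 largest falls were PTCRA, FXYD2, DSCAML1, CCKBR, SHOX2, MAT1A, BAMBI, ENPP1, SOWAHA and FA2H, and 3 of them kept the call both with the term for libraries 23 to 25 and with any 1 library left out. FA2H, which hydroxylates fatty acids of sphingolipids, lies at chr16:74712955-74774831 on the minus strand (GRCh38, GENCODE 29). Its values were 595.6, 544.5 and 586.1 on day 3 and 263 and 232.3 on day 6, with all day 6 values below all of day 3. FA2H fell by 1.21 ± 0.091 (SE) on the log2 scale (adjusted p = 3.61e-09), and its fall was larger than at 100% histidine by 0.56 (adjusted p = 0.0122), though not without replicate 1 of day 3 at 100% (adjusted p = 0.129). FXYD2, the gamma subunit of the sodium pump (chr11:117800844-117828698, minus strand), had values of 399.9, 364.6 and 404.8 against 135.3 and 117.1, a change of -1.62 ± 0.154 (adjusted p = 1.46e-07). FXYD2 had day differences of -1.54 at 100% and -1.97 at 25%, and neither differed from that at 12.5% by the test (adjusted p = 0.915 and 0.565). PTCRA, the invariant chain of the pre-T-cell receptor (chr6:42915989-42925835, plus strand), had values of 44.01, 58.57 and 56.54 against 10.44 and 7.281, a change of -2.46 ± 0.346 (adjusted p = 3.13e-05). The adjusted p with the term was 0.000422 for FA2H, 0.00615 for FXYD2 and 0.0227 for PTCRA, and the other 7 falls were not called. SHOX2, MAT1A, BAMBI, ENPP1 and SOWAHA lost the call when 1 library was left out, with adjusted p-values up to 0.267, 0.146, 0.601, 0.235 and 0.149.

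The genes of DNA replication fell together. The list of 30 genes for G1/S transition and DNA replication, the machinery that licenses origins, loads the helicase, copies DNA and supplies deoxynucleotides, had 27 members called lower and none higher, against 10.2% and 3.56% of all genes tested. Its median difference was -0.62, against 0.03 over all genes. Promoters of such genes are textbook targets of E2F factors, so the promoter of MCM6, a subunit of the MCM helicase with one of the smallest p-values in the list, is shown. It covers the 250 bases before the RefSeq start site (chr2:135876444-135876693, minus strand, GRCh38.p14), 5′ to 3′, with the letters TTTGGCGC, a textbook form of the E2F site, in capitals.
MCM6 promoter: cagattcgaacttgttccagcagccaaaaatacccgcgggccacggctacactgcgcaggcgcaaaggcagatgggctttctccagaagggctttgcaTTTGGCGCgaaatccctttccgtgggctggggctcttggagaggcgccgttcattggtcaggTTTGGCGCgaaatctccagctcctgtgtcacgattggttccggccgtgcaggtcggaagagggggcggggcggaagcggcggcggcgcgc
These letters occur 2 times in that stretch. The windows searched ran from 250 bases before to 50 after each start site of the RefSeq table, on both strands. TTTGGCGC or a second form, TTTCCCGC, occurred in 15 of the 25 listed genes that have a window (60%). The share was 2.75% of all 27305 genes of the table and 4.13% of the 13597 tested genes that have a window. No gene of the list held both forms, and both were chosen after values were seen. A match is a description of letters and not a bound site.

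MCM7, another helicase subunit (chr7:100092728-100101940, minus strand), had values of 18980, 17940 and 18480 on day 3 and 11100 and 10770 on day 6. The highest day 6 value was far below the lowest of day 3, and MCM7 fell by 0.76 ± 0.055 (SE) on the log2 scale, to 0.592 of its day 3 mean (adjusted p = 2.93e-09). MCM6 had values of 5952, 5970 and 5836 against 3651 and 3648, a change of -0.70 (adjusted p = 4.08e-09). MCM5 had values of 5112, 4767 and 5102 against 2852 and 2660, a change of -0.86 (adjusted p = 1.16e-08), the largest of the list. In each of the MCM genes the groups did not overlap and the spread within a day was a small part of the difference.

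Genes downstream of helicase loading moved the same way. PCNA, the sliding clamp of the polymerases, had values of 8130, 7905 and 8124 against 5170 and 4851, a change of -0.69 (adjusted p = 1.54e-06). TYMS, which makes thymidylate, had values of 5594, 5557 and 5539 against 3462 and 3364, a change of -0.70 (adjusted p = 1.55e-06). E2F1, a transcription factor of the list, had values of 2964, 2659 and 3099 against 1933 and 1748, a change of -0.66 (adjusted p = 3.18e-05). The members that did not pass were GINS4, RFC3 and RRM2. RRM2, a subunit of ribonucleotide reductase, spread over 2973, 1464 and 566.9 among the day 3 libraries and was 1054 and 1210 on day 6, so its libraries overlapped and differed more within a day than between days.

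**Figure D2:**
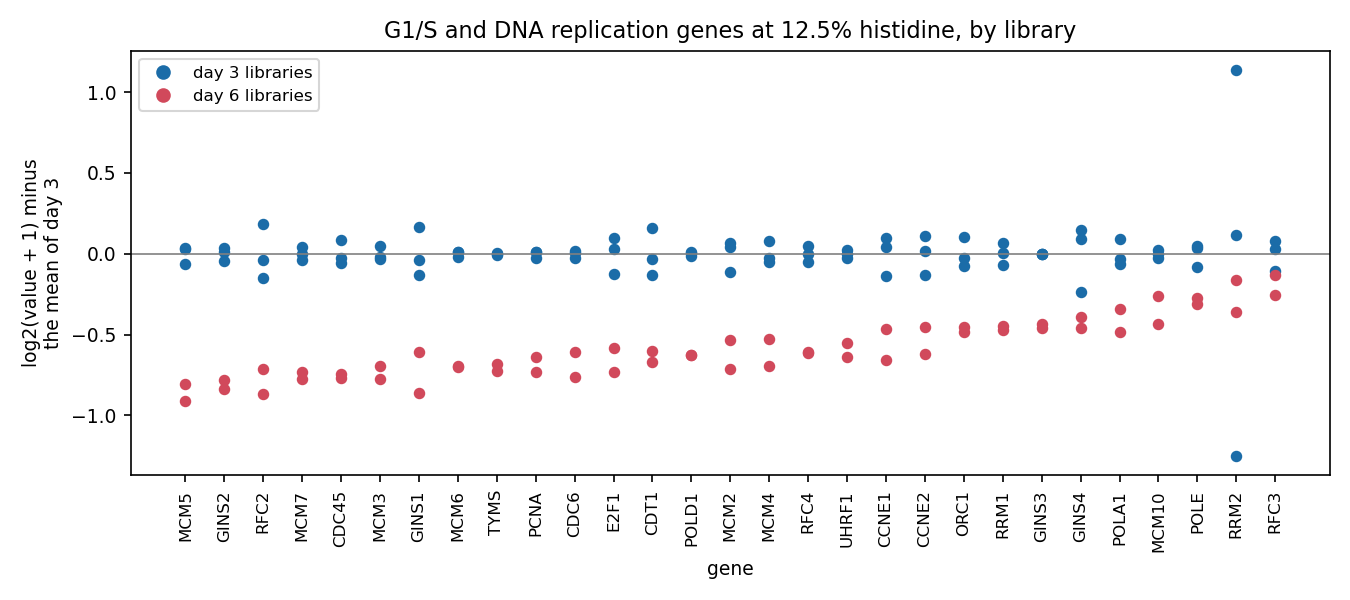
Genes of G1/S transition and DNA replication on the x axis, ordered by their difference, and each library's log2(value + 1) minus the gene's day 3 mean on the y axis; blue points are the 3 day 3 libraries and red points the 2 day 6 libraries at 12.5% histidine. The day 6 points lie below the day 3 points for nearly all genes, and RRM2 shows the wide spread within day 3 described in the text.

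The count of replication genes called lower was 21 without replicate 1 of day 6 and at most 25 with any 1 library left out. It was 22 after scaling to 1 total and 22 after quantile normalization. With the term for libraries 23 to 25 it was 8, namely MCM3, MCM4, MCM5, MCM6, MCM7, GINS2, PCNA and RFC4, with a list median of -0.43. The fall was not particular to 12.5%: the list's median day difference was -0.37 at 100% and -0.54 at 25%. It was larger than at 100% for 7 members by the test of the difference, among them MCM3, MCM5, MCM6, MCM7, CDC45 and RFC4, by 0.57 ± 0.099 (SE) for MCM5 (adjusted p = 0.00104). That count was 3 to 7 with 1 library left out and 0 with the term. No member differed from its change at 25% (limma, adjusted p under 0.05). MCM7 was 13620 ± 685.1 (SD, n = 2) on day 3 and 10340 ± 251.5 (SD, n = 3) on day 6 at 100%. At 12.5% its group means were 18470 and 10930. For MCM7 the larger fall thus began from a higher day 3 level and ended near the day 6 level at 100%.

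The machinery of translation was lower on day 6, and its counts stand beside 10.2% of all genes tested called lower and 3.56% higher. Of 79 cytosolic ribosomal protein genes, 65 fell and 1 rose, with a median of -0.37, and the count of falls was 50 after scaling to 1 total and 42 after quantile normalization. RPS15A, a protein of the small subunit, had values of 10620, 10450 and 11040 on day 3 and 6712 and 6531 on day 6, and fell by 0.69 on the log2 scale (adjusted p = 1.54e-06). Of 24 ribosome biogenesis genes, 12 fell and none rose, with a median of -0.26. That count was 6 after scaling to 1 total and 5 after quantile normalization, with 1 gene higher in each, 6 without replicate 2 and 7 without replicate 1 of day 6. NOP56, a core protein of the particles that modify ribosomal RNA (chr20:2652145-2658393, plus strand), had values of 6984, 6434 and 6377 against 4022 and 3904, a change of -0.73 ± 0.062 (SE; adjusted p = 1.87e-08). Its fall was larger than at 100% by 0.62 (adjusted p = 6.85e-05), a difference kept with the term for libraries 23 to 25 (adjusted p = 0.0177). Of the 79 ribosomal proteins, 4 had a lower day difference than at 100% and 1 a higher one, beside 2.36% and 1.28% of all genes. The list's median day difference at 100% was -0.19. The median of the difference of changes was also -0.19, with 10 of the 79 above 0. With the term for libraries 23 to 25, no ribosomal protein and 2 ribosome biogenesis genes were called for the change between days.

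Enzymes that make nucleotides and one-carbon units were lower as well, again beside 10.2% of all genes tested called lower. Of 15 genes for serine, proline and one-carbon metabolism, 14 fell and none rose, with a median of -0.39, and 10 fell after scaling to 1 total and 9 after quantile normalization. SHMT2, the mitochondrial enzyme that takes a carbon from serine, had values of 9693, 8834 and 9546 against 6759 and 6809, a change of -0.46 (adjusted p = 5.52e-05). PHGDH, the first enzyme of serine synthesis, had values of 10540, 9643 and 10050 against 7797 and 7301, a change of -0.42 (adjusted p = 0.000211). Both have groups that do not overlap. Of 19 purine and pyrimidine synthesis genes, 13 fell and none rose, with a median of -0.36. PRPS2, which makes the ribose precursor of both nucleotide families, had values of 1886, 1726 and 1430 against 1080 and 1078, a change of -0.63 (adjusted p = 3.02e-05). IMPDH2, the committed enzyme of guanine nucleotide synthesis, fell by 0.31 on the log2 scale (adjusted p = 0.00115). Without replicate 1 of day 6, 8 genes of each of these 2 lists were called lower, and with the term for libraries 23 to 25 none was.

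Energy metabolism showed the same direction, beside the same 10.2% of all genes tested called lower. Of 30 nuclear genes of the respiratory chain, 19 fell and none rose, with a median of -0.41. COX5B, a subunit of cytochrome c oxidase, had values of 1212, 1304 and 1407 against 746.7 and 754.8, a change of -0.80 (adjusted p = 2.04e-05). Without either replicate of day 6 the count of this list was 12, and with the library number modulo 8 as a factor it was 8. No respiratory chain gene was called with the term for libraries 23 to 25, where COX5B differed by -0.71 (adjusted p = 0.109). The 13 mRNAs of the mitochondrial genome had a median of 0.38 and none was called. Mitochondrial transcripts made up 2.23%, 2.6% and 3.32% of the total on day 3 and 2.73% and 5.36% on day 6, so 1 day 6 library lay within the day 3 range and the other above it. Of 28 genes of glycolysis and hypoxia, 12 fell and none rose, with a median of -0.26. GAPDH, a central enzyme of glycolysis (chr12:6533927-6538374, plus strand), had values of 53770, 48930 and 51330 against 35200 and 33850, a change of -0.57 ± 0.057 (SE; adjusted p = 3e-07). ENO1, which acts later in the same pathway, had values of 41940, 38030 and 39610 against 25180 and 24060, a change of -0.69 (adjusted p = 3.4e-08). ENO1 and GAPDH, which are abundant in every library, were called in all the fits named so far, including that with the term for libraries 23 to 25 (5 of the 28 genes), with the exception of GAPDH after quantile normalization, where its change was -0.34 (adjusted p = 0.0689).

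These lists differ in how long their transcripts are, and the change between days ran with length. Among protein-coding genes with a mean of at least 100, the median log2 difference was -0.21 in the bin of the shortest transcripts, of 5 equal bins, (207 to 895 bases), -0.22, -0.14 and -0.04 in the next 3, and 0.07 in the longest (3524 to 27174 bases). In the shortest bin 709 of 2159 genes were called lower and 67 higher, and in the longest 124 and 227 of 2159. At 100% histidine the same medians ran from -0.11 to 0.02 and at 25% from -0.09 to 0.1, in libraries that share none with the 12.5% groups. The median transcript length was 682 bases for the ribosomal proteins and 707.5 for the nuclear respiratory chain, but 1987 for the replication list, against 1616 over all genes tested. After a correction of each library for length and GC content the replication list had 26 of 30 genes lower, the ribosomal proteins 50 of 79, and the respiratory chain 13 of 30.

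**Figure D3:**
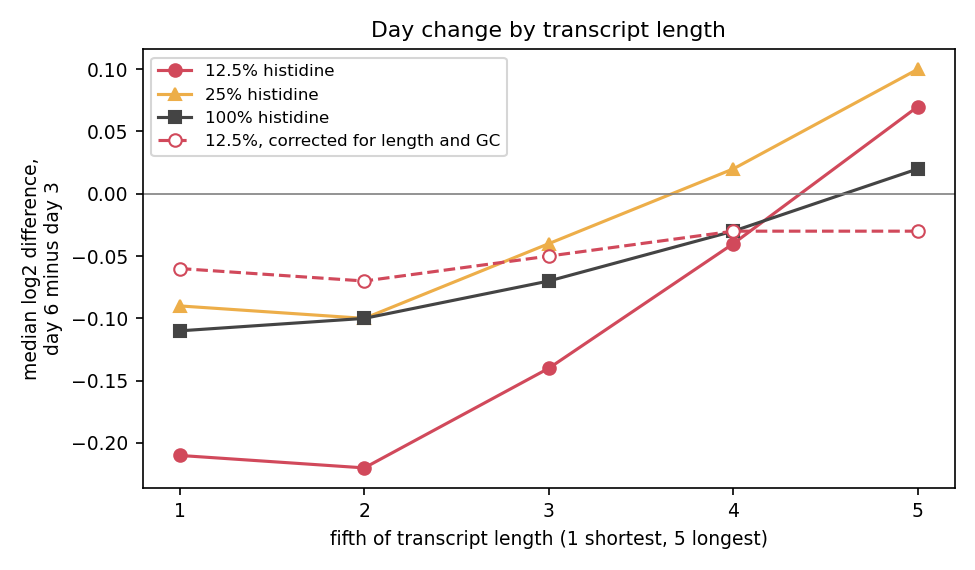
Median log2 difference, day 6 minus day 3, on the y axis, over 5 bins of protein-coding genes by transcript length on the x axis, from shortest to longest; lines and symbols mark 12.5%, 25% and 100% histidine, and the dashed line is 12.5% after the correction for length and GC content. The 12.5% medians lie between -0.22 and 0.07 and the corrected ones between -0.07 and -0.03.

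On the deposited scale no amino acid response gene was called higher on day 6 than on day 3. Of 24 ATF4 and CHOP targets, 9 fell and none rose, with a median of -0.21, and the falls were 4 after scaling to 1 total and 3 after quantile normalization, where 1 and 2 members were called higher. The falls were 4 without replicate 1 and 5 without replicate 2 of day 6, and with the term for libraries 23 to 25 none was called. TRIB3, a pseudokinase induced by ATF4 (chr20:362835-397559, plus strand), had values of 27560, 25780 and 26470 on day 3 and 17460 and 17060 on day 6. The groups were far apart, and TRIB3 fell by 0.62 ± 0.087 (SE; adjusted p = 4.27e-05), but with the term it differed by -0.48 (adjusted p = 0.198). ATF4 itself had values of 16940, 16590 and 16890 against 13320 and 13070, a change of -0.35 (adjusted p = 7.27e-05) that was not called with the term (-0.27, adjusted p = 0.229) or after quantile normalization (-0.12, adjusted p = 0.0687). CHAC1, which degrades glutathione, had values of 929.2, 943.7 and 985.2 against 979.3 and 955.6, with overlapping groups and a difference of 0.02 (adjusted p = 0.92). ASNS, asparagine synthetase, differed by -0.25 (adjusted p = 0.08), and SLC7A11, the cystine importer, by 0.29 (adjusted p = 0.0752), so neither passed. DDIT3, which encodes CHOP, differed by -0.17 (adjusted p = 0.423). ATF3 fell by 0.53 and SESN2, an amino acid sensor that restrains mTORC1, by 0.26 (adjusted p = 0.014 and 0.01), but both lost the call with 1 library left out (adjusted p up to 0.307 and 0.0848).

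Genes that import and charge amino acids were lower in part, where 10.2% of all genes tested were called lower. Of 20 aminoacyl-tRNA synthetases 12 fell and none rose, with a median of -0.25, and 6 fell after scaling to 1 total, 3 after quantile normalization and 6 without replicate 1 of day 6. SARS1, the seryl enzyme, had values of 15380, 14010 and 15210 against 11930 and 12150, a change of -0.30 (adjusted p = 0.000563) that was -0.04 after quantile normalization (adjusted p = 0.74). HARS1, the enzyme that charges histidine, had values of 2107, 1877 and 2061 against 1673 and 1788, with groups that do not overlap and a difference of -0.22 that missed the threshold (adjusted p = 0.053). Of 17 tested amino acid transporters 8 fell and none rose, with a median of -0.14, whereas 6 fell and 2 rose after either scaling. SLC1A5, the main glutamine importer, had values of 14610, 13710 and 13990 against 10970 and 10770, a change of -0.38 (adjusted p = 8.64e-06). SLC38A5, a transporter that carries histidine and glutamine, had values of 706.8, 649.6 and 652.6 against 461 and 447.4, a change of -0.56 (adjusted p = 0.000104). Of 15 tested genes that handle histidine, 1 passed, CNDP2, which cleaves dipeptides such as those containing histidine, and it fell by 0.27 (adjusted p = 0.00196), though not after scaling to 1 total (-0.16, adjusted p = 0.0512) or quantile normalization (-0.15, adjusted p = 0.0749). None of these transporters, synthetases or histidine-handling genes was called with the term for libraries 23 to 25.

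The comparison with full histidine asked which day differences at 12.5% differed from those at 100%. A gene not called there is not thereby shown to change alike at both levels. Both day 6 libraries at 12.5% are in the trio, so histidine and what sets the trio apart cannot be told apart. The day difference at 12.5% differed from that at 100% for 836 of 22994 genes (3.64%), of which 294 were higher at 12.5% (1.28%) and 542 lower (2.36%). With the term for libraries 23 to 25 the count was 141, and higher genes made up 55.3% of it instead of 35.2%. It was 379 without replicate 2 of day 6 at 12.5%, 392 without replicate 1 of day 3 at 100% and 442 without replicate 1 of day 6 at 12.5%. The lists with the most such genes were the chaperones of the endoplasmic reticulum, the cytosolic heat shock proteins, cholesterol synthesis, immediate early genes and the ATF4 and CHOP targets. In the first 4 of these the larger median change between days was at 100%, with 0.96, -1.03, -0.84 and -0.89, against -0.31, -0.03, -0.15 and 0.26 at 12.5%.

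**Figure D4:**
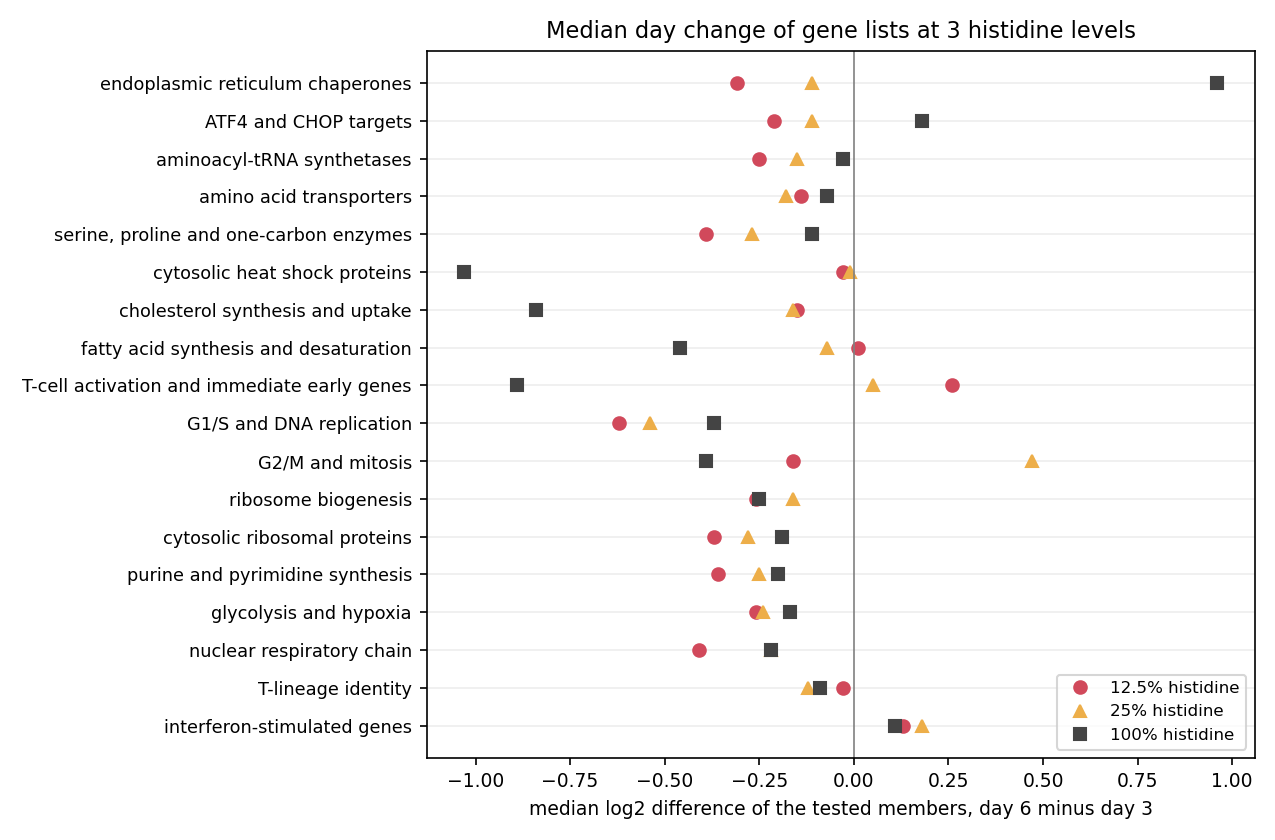
Median log2 difference, day 6 minus day 3, on the x axis, of the tested members of 18 gene lists on the y axis, for 12.5% (circles), 25% (triangles) and 100% histidine (squares). Endoplasmic reticulum chaperones sit at 0.96 at 100% and -0.31 at 12.5%, and heat shock proteins at -1.03 and -0.03.

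Chaperones of the endoplasmic reticulum fold secreted and membrane proteins and are induced together when unfolded protein accumulates there. Of 20 such genes, 18 had a lower day difference at 12.5% than at 100% and none a higher one, with a median of -1.06 for that difference of differences. HSPA5, which encodes the chaperone BiP, carries the letters CCAAT, the core bound by NF-Y, 4 times on either strand (ATTGG on the other) in the 250 bases before its start (chr9:125241344-125241593, minus strand, GRCh38.p14, RefSeq). They are in capitals here because promoters of this family are known for such boxes.
HSPA5 promoter: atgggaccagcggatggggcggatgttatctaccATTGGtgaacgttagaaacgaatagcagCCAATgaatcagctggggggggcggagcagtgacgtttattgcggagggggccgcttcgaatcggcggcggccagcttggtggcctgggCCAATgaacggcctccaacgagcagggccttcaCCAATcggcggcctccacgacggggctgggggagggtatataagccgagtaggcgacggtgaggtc
CCAAT occurred in the window of all 19 chaperone genes that have one. It also occurred in 39.7% of all genes of the table and 42.1% of tested genes with a window, so the letters are common. HSPA5 values were 11990 ± 262.3 (SD, n = 2) on day 3 and 35060 ± 7845 (SD, n = 3) on day 6 at 100%. At 12.5% the HSPA5 values were 7056 ± 616.9 (SD, n = 3) and 6694 ± 89.18 (SD, n = 2), with a day difference of -0.07 that was not called (adjusted p = 0.776). The difference of the 2 changes was -1.60 ± 0.174 (SE; adjusted p = 1.04e-05).

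MANF, a secreted survival factor of the same response, showed the pattern with less spread. It was 1821 ± 86.39 (SD, n = 2) and 4964 ± 856.5 (SD, n = 3) at 100%, and 1668 ± 42.44 (SD, n = 3) and 1309 ± 14.71 (SD, n = 2) at 12.5%. The difference of changes for MANF was -1.78 ± 0.156 (SE; adjusted p = 5.53e-08). CALR, the lectin chaperone calreticulin, differed by -1.0 (adjusted p = 1.01e-05) and HYOU1, an HSP110 of the lumen, by -1.50 (adjusted p = 4.66e-06). The 2 members that did not pass were PDIA3 and SEC61B. At 12.5% alone, 11 of the 20 fell between the days and none rose, with a median of -0.31, among them P4HB, a disulfide isomerase, with values of 10330, 8911 and 8962 against 6349 and 6312 (-0.57, adjusted p = 0.000105). That count was 2 without replicate 2 and 6 without replicate 1 of day 6, 5 without replicate 1 of day 3, 4 after scaling to 1 total, 3 after quantile normalization and 0 with the term for libraries 23 to 25. The difference from 100% was steadier, with 15 to 18 of 20 genes when 1 library was left out and 13 with the term.

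Cytosolic heat shock proteins ran the other way. Of 20 genes, 14 had a higher day difference at 12.5% than at 100% and none a lower one, with a median of 0.89. DNAJB1, the HSP40 partner that loads clients onto HSP70 (chr19:14514770-14529770, minus strand), had a difference far larger than its spread. Its promoter (chr19:14518398-14518647, minus strand, GRCh38.p14, RefSeq, the one of its 3 windows with the most matches) is shown with GAANNTTC, the core bound by HSF1 read on both strands, in capitals.
DNAJB1 promoter: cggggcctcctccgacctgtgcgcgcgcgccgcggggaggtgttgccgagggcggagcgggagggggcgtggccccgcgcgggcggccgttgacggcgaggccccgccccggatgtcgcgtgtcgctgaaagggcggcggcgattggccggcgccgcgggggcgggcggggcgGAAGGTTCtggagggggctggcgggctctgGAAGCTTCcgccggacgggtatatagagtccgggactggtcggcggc
The core occurs 2 times there, and in 11 of the 19 heat shock genes with a window (57.9%). It occurs in 8.21% of all genes of the table and 6.94% of tested genes with a window. DNAJB1 was 24180 ± 368.9 (SD, n = 2) on day 3 and 2596 ± 421.4 (SD, n = 3) on day 6 at 100%. At 12.5% its 3 day 3 libraries held 2848, 2992 and 2680 and its day 6 libraries 2423 and 2280. The day 3 value at 12.5% was thus already near the day 6 value at 100%, and the DNAJB1 changes differed by 2.96 ± 0.132 (SE; adjusted p = 7.94e-14).

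The inducible HSP70 genes differed most. HSPA1B was 19940 ± 1811 (SD, n = 2) and 720.8 ± 350.4 (SD, n = 3) at 100%, and 251.9 ± 46.05 (SD, n = 3) and 312.8 ± 38.85 (SD, n = 2) at 12.5%. The changes of HSPA1B differed by 5.21 (adjusted p = 6.16e-06) and those of HSPA6 by 5.6 (adjusted p = 0.00165). HSPA1A, with 3.79 (adjusted p = 0.000368), is a near-identical copy of HSPA1B, so the split of reads between this pair is uncertain. HSPA8, the constitutive HSP70, differed by 1.18 (adjusted p = 7.81e-06) and HSP90AA1, the inducible HSP90, by 1.26 (adjusted p = 8.44e-09). At 12.5% alone 4 of the 20 genes fell between the days, HSF1, HSPD1, STIP1 and HSPE1 (the last not with 1 library left out, adjusted p up to 0.23), and none rose, with a median of -0.03 that was 0.07 after scaling to 1 total and 0.13 after quantile normalization. Of these 4, HSF1 is a transcription factor, and HSPD1 and HSPE1 encode chaperonins of mitochondria, so the list is not wholly cytosolic. The count against 100% was 12 to 14 with 1 library left out and 9 with the term for libraries 23 to 25, where HSPA6 and HSPA1A were not called (adjusted p = 0.129 and 0.109).

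Cholesterol synthesis and uptake, controlled by SREBP2, followed the same pattern as heat shock. Of 26 genes, 14 had a higher day difference at 12.5% than at 100% and none a lower one, with a median of 0.65. HMGCS1, which makes the HMG-CoA used by the pathway (chr5:43289395-43313512, minus strand), was 10940 ± 587.8 (SD, n = 2) and 2741 ± 381.7 (SD, n = 3) at 100%. At 12.5% HMGCS1 held 1167, 1189 and 1195 on day 3 and 1052 and 1131 on day 6, a difference of -0.12 that was not called (adjusted p = 0.379). The changes of HMGCS1 differed by 1.89 ± 0.111 (SE; adjusted p = 2.61e-11). At 12.5% alone 7 of the 26 fell between the days and none rose, with a median of -0.15, among them DHCR7, the last enzyme of the pathway, with values of 1744, 1904 and 1599 against 1268 and 1228 (-0.48, adjusted p = 0.000103). The count against 100% was 13 or 14 with any 1 library left out and 11 with the term for libraries 23 to 25. Of 15 fatty acid genes 6 were higher against 100% and none lower, with a median of 0.41, but 2 with the term.

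The stress genes split from each other. Of the 24 ATF4 and CHOP targets, 10 had a lower day difference at 12.5% than at 100% and none a higher one, with a median of -0.31, and 7 to 10 did with 1 library left out and 5 with the term for libraries 23 to 25. TRIB3 was 4383 ± 317.6 (SD, n = 2) and 12760 ± 2084 (SD, n = 3) at 100%, and 26610 ± 897.3 (SD, n = 3) and 17260 ± 277.8 (SD, n = 2) at 12.5%. The day differences of TRIB3 had opposite signs, 1.53 and -0.62, and differed by -2.15 ± 0.123 (SE; adjusted p = 6.96e-11). DDIT3 was 326.3 and 1161 at 100% and 538 and 477.4 at 12.5% as group means, and its changes differed by -1.99 (adjusted p = 5.12e-08). KLHDC7B, a kelch-domain gene, was 22.59 ± 4.251 (SD, n = 2) and 178.7 ± 45.1 (SD, n = 3) at 100% and 234.4 ± 9.299 (SD, n = 3) and 182.4 ± 3.464 (SD, n = 2) at 12.5%, so that the 100% cells reached on day 6 a level near that of the 12.5% cells. Its changes differed by -3.27 (adjusted p = 3.53e-07). RIGI, a sensor of viral RNA, was listed at 0 in 1 of the day 3 libraries at 100% and 20.14 in the other, and its difference of -5.01 (adjusted p = 0.0294) was not called without replicate 1 of day 6 at 12.5% (adjusted p = 0.139).

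Immediate early genes of T-cell activation also differed from 100%. Of 29 tested members 12 were higher in that contrast and none lower, with a median of 1.52. EGR1, a zinc finger factor induced within minutes of receptor signalling (chr5:138465490-138469315, plus strand), was 4399 ± 368.5 (SD, n = 2) and 1037 ± 62.99 (SD, n = 3) at 100%. At 12.5% EGR1 held 1088, 1208 and 1162 on day 3 and 1436 and 1552 on day 6, groups that do not overlap but whose difference of 0.37 was not called (adjusted p = 0.203). The EGR1 changes differed by 2.46 ± 0.258 (SE; adjusted p = 6.16e-06). DUSP1, a phosphatase that ends MAP kinase signalling, differed by 1.94 (adjusted p = 1.49e-06), and JUN, a subunit of AP-1, by 2.50 (adjusted p = 0.0132). JUN lost the call without replicate 1 of day 6 at 12.5% (adjusted p = 0.0692). The count was 8 to 11 with 1 library left out and 3 with the term for libraries 23 to 25. At 12.5% alone 2 of the 29 rose, DUSP4 and JUNB, and 2 fell, JUND and SPRY2. Of these, DUSP4, JUNB and SPRY2 lost the call with 1 library left out (adjusted p up to 0.0598, 0.128 and 0.0644). DUSP4 had values of 130.4, 192 and 134.4 against 420.5 and 450.2, a difference of 1.53 that became -0.17 with the term.

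MYC, the growth regulator, was near its day 3 level. It held 2187, 2059 and 2008 on day 3 and 2318 and 2061 on day 6, overlapping groups with a difference of 0.07 (adjusted p = 0.66), while its group means at 100% were 9679 and 7069. The changes of MYC differed by 0.52 (adjusted p = 0.00882), but not without replicate 1 of day 6 at 12.5% (adjusted p = 0.0847). Among the other genes with the largest differences from 100%, HLA-DQA1 (3.70, adjusted p = 0.0395), HOPX (3.54, adjusted p = 0.0307) and ARC (3.60, adjusted p = 0.00473) were higher, and NEBL (-2.84, adjusted p = 0.0194) and SHOX2 (-2.27, adjusted p = 0.0121) lower. None of these 5 was called with the term for libraries 23 to 25, and ARC alone of them kept the call with any 1 library left out, the others reaching adjusted p-values of 0.129 for HLA-DQA1, 0.148 for HOPX, 0.191 for NEBL and 0.1 for SHOX2. HLA-DQA1 is one of the class II genes that were high in the trio.

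**Figure D5:**
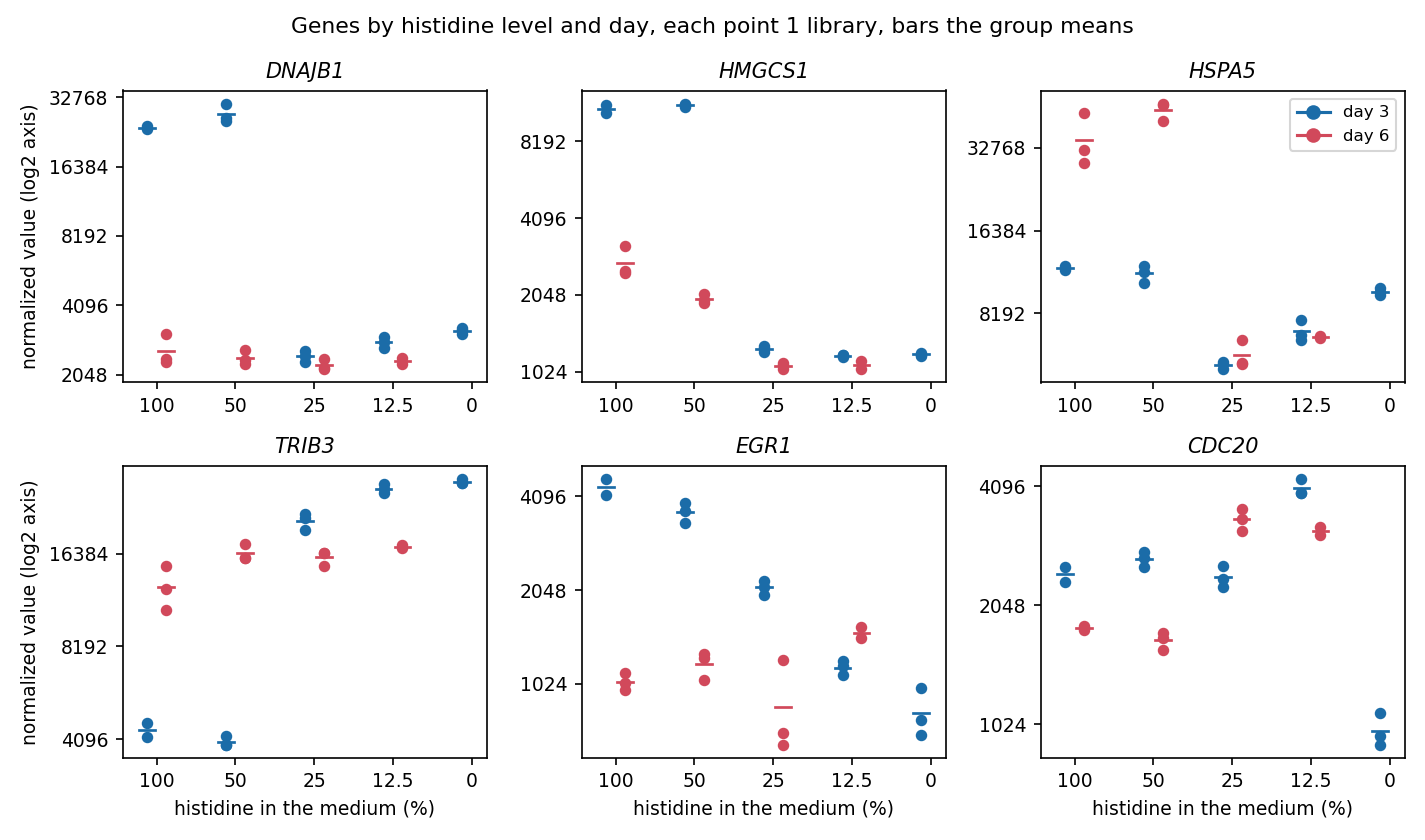
Normalized values on log2 y axes of DNAJB1, HMGCS1, HSPA5, TRIB3, EGR1 and CDC20 by histidine level in percent on the x axes; each point is 1 library, blue for day 3 and red for day 6, and bars are group means. The 12.5% pairs of DNAJB1, HMGCS1 and HSPA5 lie close together while those at 100% are far apart, and CDC20 runs down at 12.5% and up at 25%.

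Against 25% histidine, the nearest level sampled on both days, few genes differed. The fit called 102 of 22994 genes (0.444%), 17 with a higher change at 12.5% (0.0739%) and 85 with a lower one (0.37%). The share of higher calls was 16.7%, but 33.3% after scaling to 1 total and 30.9% after quantile normalization. The count was 33 without replicate 1 and 35 without replicate 2 of day 6 at 12.5%, 62, 65 and 67 without replicate 2 of day 3, replicate 2 of day 6 and replicate 1 of day 6 at 25%, and 238 without replicate 3 of day 6 at 25%, which is library 23. It was 6 with the term for libraries 23 to 25. Genes of mitosis made up the one list with more than 2 members among the calls.

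Of 25 genes of G2/M and mitosis, 14 had a lower day difference at 12.5% than at 25% and none a higher one, with a median of -0.55. CDC20 activates the ubiquitin ligase that starts anaphase (chr1:43358955-43363203, plus strand), and its promoter (chr1:43358731-43358980, plus strand, GRCh38.p14, RefSeq) is shown with TTTGAA, the cell cycle homology region of mitotic genes, in capitals on either strand (TTCAAA on the other).
CDC20 promoter: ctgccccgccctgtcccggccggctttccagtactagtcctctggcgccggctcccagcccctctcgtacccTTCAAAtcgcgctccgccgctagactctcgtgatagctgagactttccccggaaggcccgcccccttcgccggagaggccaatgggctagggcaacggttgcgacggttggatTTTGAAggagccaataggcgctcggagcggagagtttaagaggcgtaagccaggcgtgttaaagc
TTTGAA occurs 2 times there, and in 14 of the 20 mitotic genes with a window (70%). It occurs in 18.2% of all genes of the table and 14.4% of tested genes with a window. CCAAT occurred in 18 of the same 20 (90%). At 25% CDC20 held 2570, 2284 and 2386 on day 3 and 3595, 3386 and 3162 on day 6, with all day 6 values higher. At 12.5% it held 3943, 3948 and 4276 on day 3 and 3087 and 3230 on day 6, with all day 6 values lower. The day 6 levels at both histidine levels lay close together, and the CDC20 changes differed by -0.85 ± 0.105 (SE; adjusted p = 0.000156). The same difference with the term was -0.75 (adjusted p = 0.0109).

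PLK1, a kinase of mitotic entry, was 3319 ± 145.2 (SD, n = 3) and 5012 ± 359 (SD, n = 3) at 25%, and 5227 ± 108 (SD, n = 3) and 4317 ± 1.93 (SD, n = 2) at 12.5%. The PLK1 changes differed by -0.87 ± 0.108 (SE; adjusted p = 0.000156). KIF20A, a motor of cytokinesis, was 950 and 1792 at 25% and 1557 and 1590 at 12.5% as group means, and TOP2A, which untangles chromosomes, 9013 and 12720 against 11550 and 11590. The changes differed by -0.88 for KIF20A (adjusted p = 0.00168) and by -0.49 for TOP2A (adjusted p = 0.00275). MKI67, a proliferation marker, was 13090 and 19440 at 25% and 17050 and 19090 at 12.5%, and its difference of -0.41 was not called (adjusted p = 0.155). The count of 14 was 7 without replicate 1 of day 6 at 12.5% and up to 16 without other libraries, 12 after either scaling and 2, CDC20 and PLK1, with the term for libraries 23 to 25. With the library number modulo 8 as a factor it was 0.

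Within 12.5% the mitotic genes did not move as one. Of the 25, 7 fell, 2 rose and 16 did not pass, with a median of -0.16, and after either scaling 3 fell and 4 rose. The falls were 4 without replicate 1 and 3 without replicate 2 of day 6. CDC20 fell by 0.36 (adjusted p = 0.00232) and BIRC5, the inhibitor of apoptosis survivin, with values of 4627, 4416 and 4647 against 3264 and 3257, by 0.48 (adjusted p = 0.000193). No gene of the list was called between days with the term for libraries 23 to 25, where CDC20 differed by -0.22 and BIRC5 by -0.34 (adjusted p = 0.648 and 0.356). CENPF, a kinetochore protein, had values of 5365, 5389 and 5181 against 6228 and 6570 and rose by 0.27 (adjusted p = 0.0233). ASPM, a spindle pole protein, rose by 0.37 (adjusted p = 0.0221). CENPF and ASPM, the 2 that rose, were not called without 1 of the day 6 libraries (adjusted p up to 0.214 and 0.139). Against 100%, 6 of the 25 were higher and none lower, with a median of 0.21 and counts of 1 without replicate 1 of day 3 at 100% and up to 7 without other libraries.

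Among other genes that differed from 25%, ARRDC3, an arrestin-like adaptor related to TXNIP, stood highest by p. It was 2372 ± 176.2 (SD, n = 3) and 1105 ± 62.14 (SD, n = 3) at 25%, while at 12.5% it held 3149, 3602 and 3041 on day 3 and 3360 and 3464 on day 6. The ARRDC3 changes differed by 1.17 ± 0.138 (SE; adjusted p = 0.000156), and by 1.10 with the term for libraries 23 to 25 (adjusted p = 0.00872). TXNIP itself, which restrains glucose uptake, went the other way, with 8954 and 12790 at 25% and 11590 and 9481 at 12.5% as group means and a difference of -0.80 (adjusted p = 0.00221). EGR1 differed by 1.71 (adjusted p = 0.00221), with 2093, 1978 and 2191 on day 3 and 712, 651.4 and 1223 on day 6 at 25%. The 1223 of EGR1 is library 23, and with the term the difference was 1.14 (adjusted p = 0.00918). HSPA8 differed by -0.85 (adjusted p = 0.00221), DDIT3 by -0.92 (adjusted p = 0.0066) and TNNT1, a troponin, by -0.91 (adjusted p = 0.00241). DDIT3 without replicate 2 and TNNT1 without replicate 1 of day 6 at 12.5% were just outside the threshold (adjusted p = 0.0515 and 0.0579). CMPK2, TRAF1, MGST1 and GOLGA8A were higher by 1.69, 1.3, 1.18 and 1.14, and ZNF671, MYCN and PIMREG lower by values of -1.34, -1.06 and -0.93. All of these 7 lost the call with 1 library left out, with adjusted p-values up to 0.366, 0.295, 0.317 and 0.27 for the higher and 0.156, 0.328 and 0.158 for the lower.

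Genes of T-cell identity moved in both directions. Of 37 members 12 fell, 4 rose and 21 did not pass, with a median of -0.03. After scaling to 1 total 7 fell and 9 rose, with a median of 0.07, and after quantile normalization 7 fell and 8 rose, with a median of 0.04, so the balance turned with the scaling. The rises were 2 without replicate 1 of day 6, and with the term for libraries 23 to 25 there were 3 falls and no rise. TRBC1, a constant region of the receptor beta chain, had values of 10370, 9518 and 9864 against 6157 and 5868, and fell by 0.72 ± 0.055 (SE; adjusted p = 3.61e-09). CD99, a surface glycoprotein abundant in T-lymphoblasts, had values of 5654, 5739 and 5775 against 3850 and 3831, a change of -0.58 (adjusted p = 4.59e-07). Both of these fell at 12.5% with the term for libraries 23 to 25 as well (adjusted p = 0.000422 for TRBC1 and 0.0149 for CD99). RAG1, a recombinase subunit, had values of 3807, 4828 and 3637 against 3048 and 2678, a change of -0.51 (adjusted p = 0.00596) that was lost with 1 library left out (adjusted p up to 0.117). BCL11B, a transcription factor of T-cell commitment, had values of 3818, 3882 and 3815 against 4733 and 4897 and rose by 0.33 (adjusted p = 0.00132). TAL1, the oncogenic factor of this leukaemia, had values of 3087, 3065 and 2907 against 3749 and 4029 and rose by 0.36 (adjusted p = 0.000895). Neither rise was called with the term (0.37 for BCL11B and 0.42 for TAL1, adjusted p = 0.2 and 0.169), and that of BCL11B was not after the length and GC correction (0.18, adjusted p = 0.112). CD79A, a B-cell receptor chain that some T-cell leukaemias express, had values of 649.4, 633.5 and 632.3 against 316.1 and 360, and fell by 0.92 (adjusted p = 3.7e-05), more than at 100% by 1.10 (adjusted p = 0.000724). With the term CD79A was just outside the threshold (adjusted p = 0.0537).

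Genes that brake the cell cycle or mark rest showed no common direction. Of 18 CDK inhibitors and quiescence genes 5 fell and 3 rose, but 1 fell and 5 rose after scaling to 1 total and 1 fell and 4 rose after quantile normalization. Without replicate 1 of day 6 there were 2 falls and no rise, without replicate 2 there were 2 and 1, and without replicate 3 of day 3 there were 3 falls. Without replicate 1 of day 3 none rose. CCND3, the D cyclin of T cells, had values of 8369, 8649 and 8585 against 5470 and 5918, a change of -0.58 (adjusted p = 1.59e-06) that was -0.44 with the term for libraries 23 to 25 (adjusted p = 0.0752). CDKN1B, the inhibitor p27, fell by 0.26 (adjusted p = 0.00322) and KLF2, a factor of resting T cells, rose by 0.58 (adjusted p = 0.0156), and both lost the call with 1 library left out (adjusted p up to 0.0511 and 0.128). CDKN1A, the inhibitor p21, overlapped between days (256.4, 216.1 and 328.4 against 292 and 322.2). Of 17 small nucleolar RNA host genes 6 fell and 1 rose, with a median of -0.28, and GAS5, which hosts such RNAs, had values of 9584, 8953 and 9755 against 7086 and 6828, a change of -0.44 (adjusted p = 0.0027). After quantile normalization 3 of the 17 fell, and GAS5 was not among the calls (adjusted p = 0.0808). No gene of either list was called with the term.

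Of 36 interferon-stimulated genes 4 rose and 2 fell, with a median of 0.13, beside 3.56% and 10.2% of all genes tested. MX1, an antiviral GTPase, had values of 57.78, 70.61 and 65.04 against 150.5 and 227.7, a difference of 1.51 (adjusted p = 0.0429) that was 0.01 with the term for libraries 23 to 25. The other rises were XAF1, SAMD9 and SAMD9L, and the falls were IRF3 and HERC5, and each of the 6 lost its call with 1 library left out. IRF7, a regulator of this family, was not called between days at 12.5%, but its change was lower than at 100% by a difference of -1.35 (adjusted p = 0.00567), and not without replicate 3 of day 3 at 100% (adjusted p = 0.0602). In the remaining lists few genes were called, and their counts stand beside 10.2% of all genes tested called lower and 3.56% higher. On the deposited scale 5 of 31 autophagy and lysosome genes, 4 of 18 NRF2 and redox genes, 3 of 16 BCL2 family genes and 1 of 12 genes of the MYC network were called lower and none higher. After scaling to 1 total the autophagy list had 1 lower and 3 higher, the NRF2 list 1 and 2, the BCL2 family 2 and 2, and the MYC network none and 2. Without replicate 2 of day 6 no autophagy gene and 1 NRF2 gene were called lower. Of 12 tested NOTCH targets 2 were lower and 1 higher, of 15 fatty acid genes 2 were lower and 1 higher, and of 16 tested histone genes 1 was higher and none lower. Nothing in these 7 lists or among the interferon-stimulated genes was called with the term for libraries 23 to 25.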

How the data were processed

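RNA was sequenced from strand-specific libraries of total RNA, 25 in all. Per the submitters' processing notes, FastQC 0.11.9, kallisto 0.50.1 and DESeq2 1.44.0 were used with GRCh38. For their settings and annotation, the entry is "not given in the sources used here". Values in the deposited table are a signal, that is, read estimates that the authors divided by a size factor per library, and they were not turned back into whole reads (4.84% to 75.2% of low values came out whole, at a tolerance of 0.05 reads), so no count model was fitted.

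Genes that reached 10 in 2 or more libraries entered the test on log2(value + 1), and a fold change on this scale understates low genes. Group means of 9 groups over 25 libraries were fitted with limma 3.58.1 (R 4.3.3, statmod 1.5.0; trend and robust) and p-values were adjusted by Benjamini-Hochberg over all 22994 genes, with calls at 0.05. All groups entered 1 fit so that they share an estimate of the spread. The changes between days at 12.5% and at 100% or 25% were compared by interaction contrasts. The fit was tested on simulated data. Length and position came from GENCODE 29, which matched 33640 gene symbols.

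Named genes are the 10 largest rises and falls that do not overlap, with a mean of at least 50, the 6 largest in each direction of each interaction, per list the 4 called members lowest in p, and a set of marker genes. A few others, among them TYMS, E2F1, CDK inhibitors and interferon genes, were named after their values were seen, to complete a group. The members, the 34 gene lists and the tests were chosen with earlier results of these data known. The alternatives tried were other pseudocounts, filters, scalings and fits, each library left out, and, added after the data were seen, a length and GC correction and a term for libraries 23 to 25. Some genes that these rules select are not reported here.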

Additional observations from a re-analysis of the deposited data

Results flagged for a closer look

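The results here are differences between histidine levels in the change from day 3 to day 6, each past limma's test of the difference itself. Values are log2 differences of changes. Their causes were not tested.

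Against 100% histidine 836 genes differed. The higher ones named were HSPA6 (5.6), HSPA1B (5.21), HSPA1A (3.79), HLA-DQA1 (3.70), ARC (3.60), HOPX (3.54), DNAJB1 (2.96), EGR1 (2.46), HMGCS1 (1.89), HSPA8 (1.18), MYC (0.52) and MKI67 (0.50). The lower ones were RIGI (-5.01), KLHDC7B (-3.27), NEBL (-2.84), SHOX2 (-2.27), TRIB3 (-2.15), DDIT3 (-1.99), IRF7 (-1.35), GAS5 (-0.55), SESN2 (-0.35) and GAPDH (-0.34). With 1 library left out the largest adjusted p was 0.153 for MKI67, 0.121 for GAS5, 0.137 for GAPDH and 0.166 for SESN2, so these calls rest on single libraries. As given above, HLA-DQA1, HOPX, NEBL, SHOX2, RIGI, MYC and IRF7 also lost the call with 1 library left out.

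Against 25% histidine 102 genes differed. The higher ones named were EGR1 (1.71), CMPK2 (1.69), TRAF1 (1.3), MGST1 (1.18), ARRDC3 (1.17) and GOLGA8A (1.14). The lower ones were ZNF671 (-1.34), MYCN (-1.06), PIMREG (-0.93), DDIT3 (-0.92), TNNT1 (-0.91), KIF20A (-0.88), HSPA8 (-0.85), TXNIP (-0.80) and TOP2A (-0.49). As given above, CMPK2, TRAF1, MGST1, GOLGA8A, ZNF671, MYCN, PIMREG, DDIT3 and TNNT1 lost the call with 1 library left out. With the library number modulo 8 in the fit none of the 102 was called.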

How the results depend on the processing

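The depth behind the deposited values is unknown, the day 6 group has 2 libraries, and both are among the 3 that stand apart. A term for libraries 23 to 25 left limma with 58 genes called for the change between days, 141 against 100% and 6 against 25%. With the library number modulo 8 in the fit it called 1214, 549 and 0, the last with 1455 genes at an unadjusted p under 0.05. Without trend and robust fitting it called 510 against 100% and 32 against 25%, and with only the groups compared 60 against 25%. With 1 library left out the counts were 1449 to 3009, 379 to 756 and 33 to 238. The causes were not tested. Signs turned for CD3E (0.18, adjusted p = 0.00976) and LCK (0.04) after quantile normalization, for CTSD after the length and GC correction (0.02) and for DUSP4 with the term (-0.17). With the replicate block the counts were 3027, 770 and 96; deviations of libraries of the same number correlated at -0.06 over 11567 genes. With 2 libraries on day 6 the value for different numbers is the same with its sign turned, so this is 1 value, and it does not show that the numbers pair the libraries. Over the named genes and alternatives for the change between days, 2588 values kept direction and call, 424 lost the call, 26 gained it and 4 turned sign.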
